A study of Mus musculus with 17 samples.

Results

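The nuclear genes that encode the proteins of the mitochondrial ribosome were examined for peaks of RUNX1, a transcription factor of blood cells, and CHD7, an ATP-dependent chromatin remodeller. The cells were 416B, a mouse myeloid progenitor line, with and without the leukaemia fusion protein Cbfb-Myh11 (CM). Members were the protein-coding genes whose symbol is Mrpl or Mrps followed by a number and at most 1 further letter. RefSeq places them on assembly GRCm38.p6, where they are 78 of 21887 genes, 49 of the large subunit (Mrpl) and 29 of the small subunit (Mrps) by symbol. The rule uses the symbol alone. Mrps36 is kept by its symbol, although its protein is now known as a subunit of the 2-oxoglutarate dehydrogenase complex.

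Chromatin immunoprecipitation followed by sequencing (ChIP-seq) was done in 4 conditions, with 2 libraries per condition and antibody. CM +Dox cells carried a tetracycline-responsive Cbfb-Myh11 type A cDNA joined to mCherry and were given doxycycline at 1 ug/ml for 24 hours. CM -Dox cells carried that construct without doxycycline. The cells of Control +Dox and of Control -Dox carried the Control-ATG construct, which lacks CM, with the same doxycycline treatment and without it. All cells also held the tetracycline silencer and transactivator under an Ef1alpha promoter, integrated by transposase. They were grown from sorted single cells, and clones were picked after a test of their induction. The number of clones behind the libraries is not given, so differences between constructs and between clones cannot be told apart. An IgG sample was not analysed here. Nothing says whether replicates were separate cultures, and p-values therefore measure only the spread between libraries, which may be technical. Peak lists hold no expression, so the cell line was not checked by marker genes.

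Mitochondrial ribosomes translate the few proteins that mitochondrial DNA encodes, all of them parts of the oxidative phosphorylation complexes. Their RNAs come from mitochondrial DNA, while every protein of both subunits is made in the cytosol from nuclear genes and imported. Promoters of such genes are known for binding sites of ETS family factors such as GABP, of NRF1 and of YY1. RUNX1 binds DNA with its partner CBFB at the letters TGTGGT, and the fusion protein CM carries the RUNX1-binding part of CBFB.

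Each library has its own peak list with its own threshold. CM +Dox RUNX1 lists held 8140 and 9710 peaks, against 12603 to 16163 in the 6 RUNX1 lists without induced CM. The CHD7 lists held 31688 and 33462 peaks in CM +Dox, against 16323 to 37698 in the other 6. The p-value threshold in the peak names was 1e-09 in 5 RUNX1 lists, 0.01 in all CHD7 lists and 1e-07 in 3 RUNX1 lists, namely CM +Dox replicate 1, Control +Dox replicate 2 and Control -Dox replicate 2. Read depth is unknown, and 1 RUNX1 library labelled Control -Dox, replicate 1, has peaks whose names say +Dox. A library was said to call a gene when one of its peaks overlapped, by at least 1 bp, the stretch within 1 kb of either end of the gene. The rank of a member was the percentile of its best such peak by score within the list, 100 being the highest. Since list lengths differ, ranks are a description within each list and show no change between lists.

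The promoter stretches below carry the letters that the results turn on, written 5′ to 3′ on the strand of the gene, from RefSeq with GRCm38.p6 coordinates. Capitals mark RUNX (TGTGGT), ETS (CCGGAAG), NRF1 (CGCATGCG) and YY1 (AAGATGGC) letters on either strand. Of the 78 members, 69 matched a row of the promoter table. Mrpl52 and Mrpl33 are shown as examples of a RUNX match before the start and under RUNX1 peaks, Mrpl52 with the most libraries and Mrpl33 as a member that lost its call.
Mrpl52, chr14:54426709-54426908, + strand: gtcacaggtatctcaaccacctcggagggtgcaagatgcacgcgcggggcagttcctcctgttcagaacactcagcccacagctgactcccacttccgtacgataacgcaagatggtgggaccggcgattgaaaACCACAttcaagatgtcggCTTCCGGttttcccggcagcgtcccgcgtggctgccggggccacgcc
Mrpl33, chr5:31613751-31613950, + strand: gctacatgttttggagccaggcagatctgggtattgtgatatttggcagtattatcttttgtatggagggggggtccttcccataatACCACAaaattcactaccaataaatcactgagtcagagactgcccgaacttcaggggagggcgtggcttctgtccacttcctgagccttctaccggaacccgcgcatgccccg
Mrps17 is shown from base 21 to base 50 of the transcript, where the RUNX match lies under RUNX1 peaks of all 8 libraries.
Mrps17, chr5:129715517-129715546, + strand: catgctccgccggcctTGTGGTggactccg
Mrpl48, Mrpl49 and Mrpl51 had the highest mean RUNX1 ranks of the members and hold no RUNX match in these bases.
Mrpl48, chr7:100607623-100607872, - strand: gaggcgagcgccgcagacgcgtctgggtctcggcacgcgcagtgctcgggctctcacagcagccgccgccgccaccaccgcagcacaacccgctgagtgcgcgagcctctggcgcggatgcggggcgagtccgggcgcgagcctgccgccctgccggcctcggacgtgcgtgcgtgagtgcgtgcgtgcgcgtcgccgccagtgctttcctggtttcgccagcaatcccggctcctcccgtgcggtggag
Mrpl49, chr19:6057756-6058005, - strand: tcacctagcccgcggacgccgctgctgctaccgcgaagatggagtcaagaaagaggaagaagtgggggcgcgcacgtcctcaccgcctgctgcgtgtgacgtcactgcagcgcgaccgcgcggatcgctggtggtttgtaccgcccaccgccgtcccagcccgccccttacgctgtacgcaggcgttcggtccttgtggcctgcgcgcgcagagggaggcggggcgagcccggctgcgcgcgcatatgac
Mrpl51, chr6:125191950-125192199, + strand: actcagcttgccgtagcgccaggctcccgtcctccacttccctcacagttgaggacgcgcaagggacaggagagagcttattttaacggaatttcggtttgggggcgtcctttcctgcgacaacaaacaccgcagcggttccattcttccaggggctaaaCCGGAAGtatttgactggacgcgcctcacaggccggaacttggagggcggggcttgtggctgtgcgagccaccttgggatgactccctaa
Mrps31 and Mrpl39 had CHD7 peaks in the top 5% of every list, and were chosen for display after their values were seen.
Mrps31, chr8:22411090-22411339, + strand: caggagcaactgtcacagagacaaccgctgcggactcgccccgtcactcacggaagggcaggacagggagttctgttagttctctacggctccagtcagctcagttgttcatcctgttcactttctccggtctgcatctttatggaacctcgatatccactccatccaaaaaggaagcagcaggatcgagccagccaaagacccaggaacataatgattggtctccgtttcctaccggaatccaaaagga
Mrpl39, chr16:84735245-84735444, - strand: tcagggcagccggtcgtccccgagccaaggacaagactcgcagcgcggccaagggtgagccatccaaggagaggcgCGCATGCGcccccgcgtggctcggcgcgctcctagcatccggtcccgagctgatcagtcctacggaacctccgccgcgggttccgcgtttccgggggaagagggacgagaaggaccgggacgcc

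RUNX1 was called at fewer members in CM +Dox cells in the lists as deposited. It was called at 22 and 23 of the 78 members in CM +Dox cells. Against these stood 31 and 34 members in CM -Dox, 38 and 26 in Control +Dox, and 44 and 33 in Control -Dox cells. The mean was 22.5 ± 0.707 members (SD, n = 2) in CM +Dox cells and 34.3 ± 6.15 members (SD, n = 6) in libraries without induced CM, which did not overlap with CM +Dox. In percent of the members these are 28.2% and 29.5% in CM +Dox, against 33.3% to 56.4% in the other 6 libraries. Over all protein-coding genes, RUNX1 was called at 18.9% and 19.2% in CM +Dox, against 17.3% to 24.9% in the other 6. Members were thus called 1.5 and 1.54 times as often as all genes in CM +Dox libraries, against 1.89 to 2.26 times in the other 6.

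The direction turned when every RUNX1 list was cut to the 8140 highest peaks, the length of the shortest. RUNX1 was then called at 22 and 20 members in CM +Dox cells, against 10 to 14 members in the other 6 libraries. The means were 21 ± 1.41 members (SD, n = 2) and 12.83 ± 1.60 members (SD, n = 6). Among all genes the shares turned too, to 18.9% and 15.7% in CM +Dox against 8.60% to 13.5% in the others. The ratio of members to all genes was then 1.56 in CM +Dox libraries and 1.54 in the other 6. With all RUNX1 lists held to the strictest p threshold among them, 1e-09, the difference was -12.67 members, against -11.83 as deposited, and the same number of members, 5, was lost. The lower member count in CM +Dox cells therefore holds at the deposited thresholds and at a common one, and not at equal list length, and depth as its source was not tested.

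**Figure D1:**
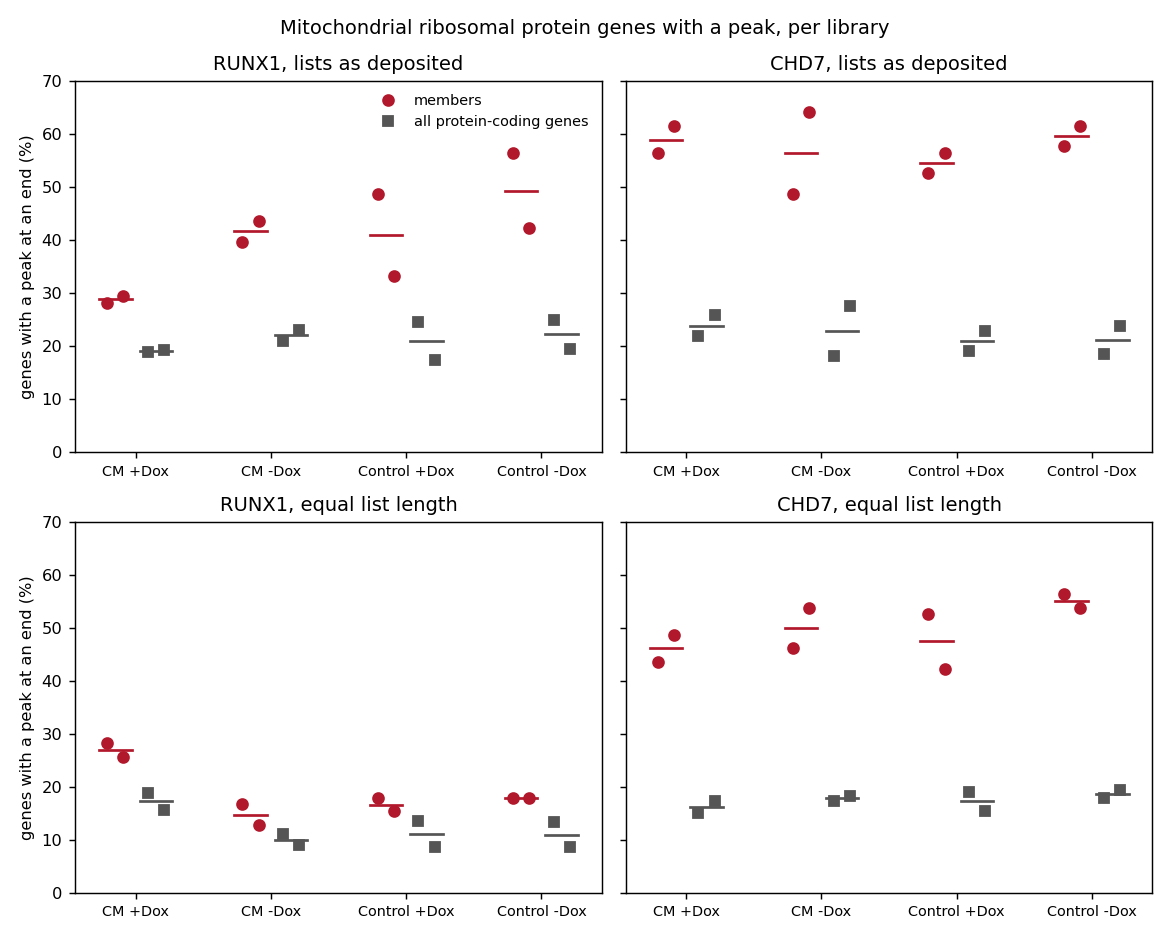
Percent of genes with a peak within 1 kb of a gene end in each library (vertical axis) by condition (horizontal axis), for the 78 members (red circles) and all protein-coding genes (grey squares), with RUNX1 on the left and CHD7 on the right; short lines are the means of 2 libraries. In the upper row (deposited lists) CM +Dox RUNX1 libraries lie lowest among the members at 28.2% and 29.5%, while in the lower row (equal list length) they lie highest, and members lie above all genes in every library.

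By condition, RUNX1 was called in both replicates at 17 members in CM +Dox cells, where the share of all genes was 16.2%. It was called in both replicates at 28 members in CM -Dox (all genes 19.4%), 21 in Control +Dox (all genes 16.1%) and 32 in Control -Dox cells (all genes 18.1%). RUNX1 was called in all 8 libraries at 10 members (all genes 10.3%) and in no library at 26 members (all genes 68.9%). Calls in no library were thus less frequent among members than among all genes, while the share called throughout, 10 of 78, was near the background. The remaining 42 members were called in some libraries only.

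The 10 members called by RUNX1 in every library were Mrpl17, Mrpl43, Mrpl45, Mrpl48, Mrpl49, Mrpl51, Mrps16, Mrps17, Mrps18b and Mrps27. Their peaks covered the annotated gene start in all 10 cases. RUNX1 ranks of members were modest. The median rank of called members was 44.0 and 43.0 in CM +Dox, against 27.8 to 39.0 in the other 6 libraries, and was below that of all called genes (34.8 to 54.1) within each library. No member lay in the top 5% of any RUNX1 list. The share of all genes there was 0.206% to 0.736% by list, and 0.0685% lay there in every list. With 78 members, 0 is near these shares.

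Mrpl48 encodes a protein of the central protuberance of the large subunit and had the highest RUNX1 ranks among the members. Its best RUNX1 peak had percentile 81.3 and 79.6 in CM +Dox cells. The percentiles were 84.6 and 78.7 in CM -Dox, 89.3 and 71.6 in Control +Dox, and 86.3 and 78.2 in Control -Dox cells. The CM +Dox values lay within the range of the others. Its site, chr7:100606977-100607908, spans 932 bp and overlaps by 728 bp a CHD7 site that was also called in all 8 libraries.

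Mrpl49, a protein found only in mitochondrial ribosomes, starts 192 bp from the divergent start of Fau, which encodes a cytosolic ribosomal protein precursor. The RUNX1 percentile at Mrpl49 was 60.6 and 61.6 in CM +Dox, against 54.2 to 80.9 in the other 6 libraries. CHD7 was called there in no CM +Dox library and in 2 of the other 6. Peaks at this shared promoter cannot be given to either gene. Mrpl51, a large-subunit protein beside Ncapd2, had RUNX1 percentiles of 43.3 and 71.0 in CM +Dox, against 49.6 to 76.3 in the others, and the groups overlapped. Mrps18b, one of several mammalian relatives of bacterial S18, had 70.5 and 67.2 in CM +Dox, against 36.1 to 72.7 in the others.

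Mrpl45 lies near the exit of the ribosomal tunnel and helps to hold the ribosome at the inner membrane. Its RUNX1 percentile was 60.9 and 30.1 in CM +Dox, against 15.5 to 92.8 in the others, which was the widest spread among these 10 members. Mrps17, the relative of bacterial S17, had percentiles of 59.7 and 51.5 in CM +Dox, against 34.1 to 55.5 in the others. Mrps27, a pentatricopeptide repeat protein of the small subunit, had 44.8 and 43.7 in CM +Dox, against 14.1 to 62.6. All of these groups overlapped. Mrpl17, the relative of bacterial L17, had 4.44 and 46.4 in CM +Dox, against 34.4 to 71.4, with means of 25.44 in CM +Dox and 55.92 in the other 6 libraries.

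**Figure D2:**
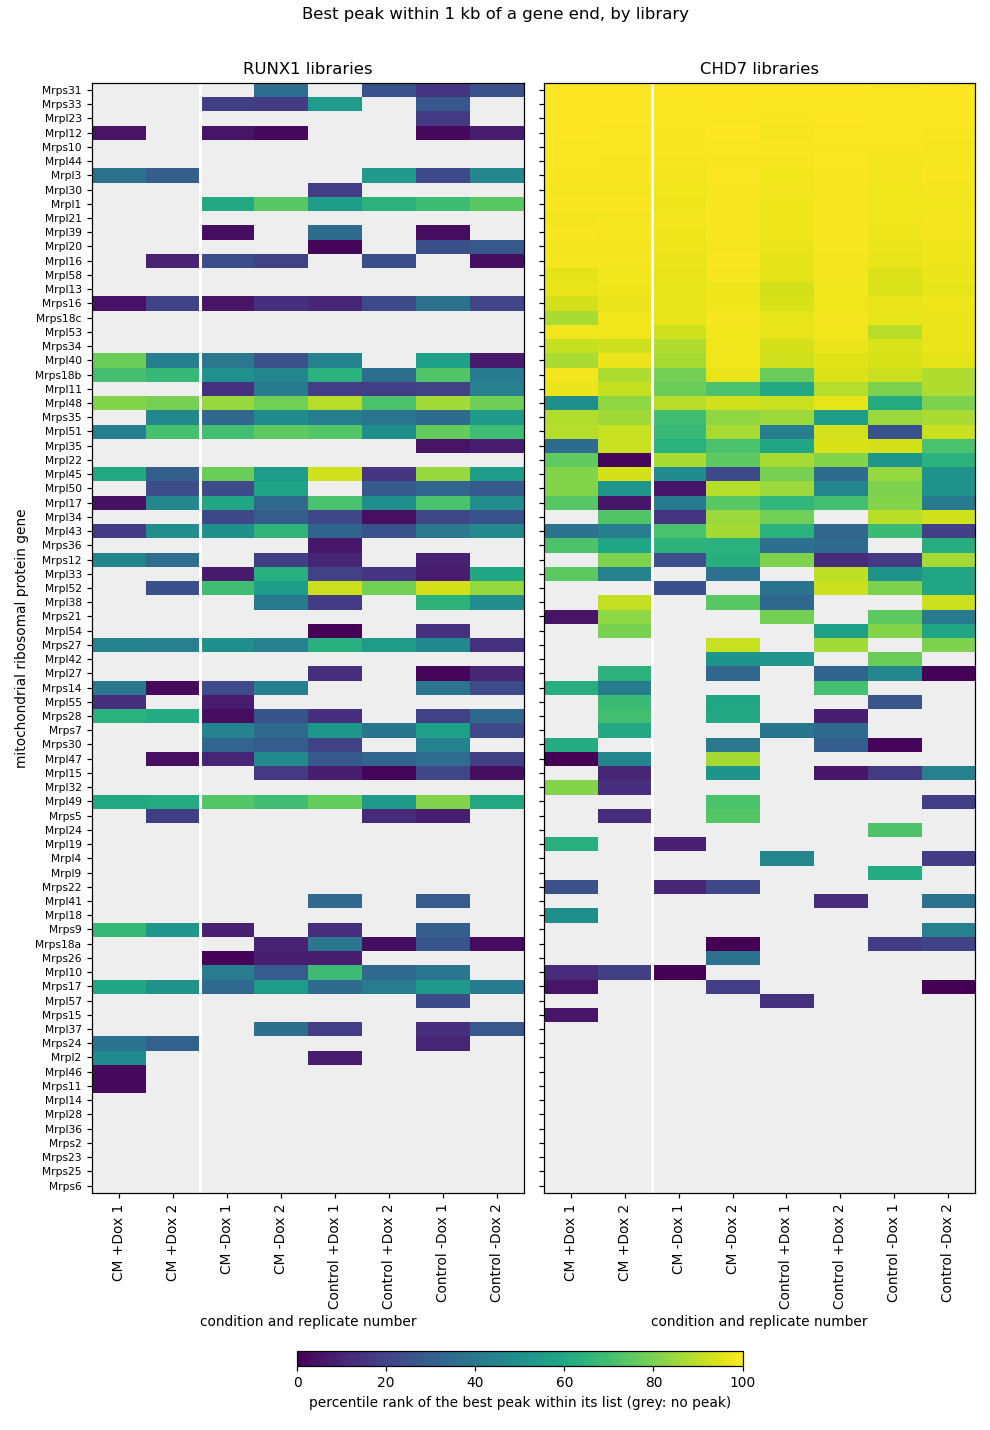
Percentile rank within its list of the best peak at each of the 78 members (rows, ordered by mean CHD7 rank) in each library (columns, CM +Dox left of the white line), RUNX1 on the left and CHD7 on the right; grey marks a library with no peak. The upper rows are yellow in all 8 CHD7 columns, with 13 members in the top 5% throughout, while no RUNX1 cell reaches that range.

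RUNX1 calls were lost with induced CM at 5 members, that is, called in all 6 libraries without induced CM and in neither CM +Dox library. They were Mrpl1, Mrps7, Mrpl33, Mrpl11 and Mrpl34, out of 18 members called in all 6 (13.5% of all genes were called in all 6). Among all genes called in all 6 the share lost was 12.3%. No member of the 28 called in none of the 6 was gained, where the share of all such genes was 0.437%. Without CM +Dox replicate 2 the lost members numbered 8, with Mrpl47, Mrpl52 and Mrps35 added, and 2 were gained. Without Control -Dox replicate 1, 1 member was gained. At equal list length 1 member was lost, Mrpl1, with 8.09% lost among all genes called in all 6. Then 5 were gained, namely Mrps12, Mrps16, Mrps24, Mrps28 and Mrps9, where 3.19% of all such genes were gained.

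The 5 members gained at equal list length were picked by that cut, which removes low-ranked peaks from the longer lists. Their ranks restate the selection and are no further support for a gain. Apart from Mrps16, they ranked higher within the shorter CM +Dox lists. Mrps9, the relative of bacterial S9, had RUNX1 percentiles of 67.2 and 52.0 in CM +Dox, against no peak to 30.2 in the others. Mrps28 had 63.8 and 61.6 in CM +Dox, against no peak to 33.2. Mrps12, the relative of S12 at the decoding centre, had 45.1 and 35.9 in CM +Dox, against no peak to 18.5. All 5 encode small-subunit proteins, and all 5 had weak calls in some library without induced CM in the lists as deposited.

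Mrpl1, the relative of the bacterial L1 stalk protein, was the lost member with the highest ranks and the one lost at equal list length too. It had no RUNX1 peak in either CM +Dox library. The percentiles were 60.7 and 74.2 in CM -Dox, 54.8 and 64.2 in Control +Dox, and 69.0 and 74.6 in Control -Dox cells. Thus the 6 libraries without induced CM lay above the middle of their lists, and those with it had no call. The RUNX1 site, chr5:96209248-96209675, lies 70 bp from a CHD7 site, chr5:96209746-96210325, that was called in all 8 libraries with percentiles of 99.0 and 98.9 in CM +Dox and 97.5 to 99.1 in the others. A further CHD7 site, chr5:96209287-96209655, overlaps the RUNX1 site and was called in 3 libraries without induced CM and in neither CM +Dox library. Its mean percentile in those 3 libraries was 12.1. Mrpl1 thus had no RUNX1 call with CM, and its CHD7 peaks near the top of both CM +Dox lists came from the site 70 bp away.

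Mrps7, the relative of bacterial S7 in the head of the small subunit, had RUNX1 percentiles of 21.9 to 56.6 in the 6 libraries. Its site, chr11:115603803-115604157, covers the start of Mrps7, and the opposite start of Gga3 lies 224 bp away. Mrpl11, part of the region where translation GTPases bind, had 14.5 to 43.6 in the 6 libraries. CHD7 was called there in all 8 libraries, with percentiles of 96.9 and 91.0 in CM +Dox and 60.7 to 88.7 in the others. Those CHD7 groups did not overlap, but ranks of lists of unequal length show no change. Mrpl33 had 7.32 to 63.3 and Mrpl34 had 4.22 to 29.5 in the 6 libraries, both being relatives of small bacterial large-subunit proteins. The lowest ranks of both lay near the ends of their lists.

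Mrpl52, a large-subunit protein found only in mitochondria, fell short of the rule for a lost call by 1 library. It had no RUNX1 peak in CM +Dox replicate 1 and percentile 24.6 in CM +Dox replicate 2. The percentiles were 69.4 and 56.0 in CM -Dox, 92.2 and 78.8 in Control +Dox, and 93.7 and 84.0 in Control -Dox cells. CHD7 was called at Mrpl52 in no CM +Dox library and in 5 of the other 6. For RUNX1 the CM +Dox libraries lay below the other 6 in rank, though ranks of lists of unequal length show no change.

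In the separate comparisons, which share libraries, RUNX1 had calls from both CM -Dox and neither CM +Dox library at 9 of 28 members (all genes 15.0%). These were the 5 lost members with Mrpl10, Mrps26, Mrps30 and Mrps33. The converse pattern, both CM +Dox and neither CM -Dox, was found at 2 of 41 members, Mrpl3 and Mrps24 (all genes 1.23%). Against Control +Dox, calls were missing from CM +Dox at 8 of 21 members (all genes 17.6%) and added at 2 of 35, Mrps14 and Mrps24 (all genes 1.64%). Between controls, calls were missing from Control +Dox at 3 of 32 members, Mrpl12, Mrpl35 and Mrps14 (all genes 2.55%), and present in it alone at 0 of 33 (all genes 0.192%). For CM -Dox against Control -Dox, the missing calls were at 4 of 32 members, Mrpl20, Mrpl27, Mrpl3 and Mrpl35 (all genes 4.33%), and the added one was at 1 of 33, Mrps26 (all genes 0.775%).

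No gene of the genome passed the per-gene test, in which calls in 2 CM +Dox and 6 other libraries were compared by a two-sided Fisher exact test with Benjamini-Hochberg adjustment. For RUNX1, 4551 genes called in some but not all libraries were tested, the smallest p that the design allows was 0.0357, and the lowest adjusted p was 0.377 by the exact test. At an unadjusted p under 0.05 there were 431 genes, 5 of the 42 members tested among them. For CHD7, 6418 genes were tested, none passed, and 99 had an unadjusted p under 0.05, with 1 of 35 members.

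CHD7 was called at more members than RUNX1 in the lists as deposited, and at ranks near the top of its lists. Every CHD7 list had a looser p-value threshold than the RUNX1 lists and was longer than any of them. Counts and ranks of the antibodies are therefore not on a common scale, and more binding by CHD7 than by RUNX1 was not tested. The comparisons with all genes below are within each list. It was called at 44 and 48 members in CM +Dox cells, against 38 and 50 in CM -Dox, 41 and 44 in Control +Dox, and 45 and 48 in Control -Dox. The mean was 46.0 ± 2.83 members (SD, n = 2) in CM +Dox and 44.3 ± 4.41 members (SD, n = 6) in the other libraries, a difference smaller than the spread. In CM +Dox the share of members was 56.4% and 61.5%, where that of all genes was 21.9% and 25.8%. Across all 8 libraries members were called 2.33 to 3.11 times as often as all genes, with 2.57 and 2.38 in CM +Dox. At equal list length the counts were 34 and 38 members in CM +Dox, against 33 to 44 in the others, and the groups still overlapped. The shares of all genes were then 15.1% and 17.3% in CM +Dox, against 15.5% to 19.3% in the others.

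In both replicates CHD7 was called at 38 members in CM +Dox (all genes 17.8%), 35 in CM -Dox (all genes 16.6%), 35 in Control +Dox (all genes 15.0%) and 40 in Control -Dox (all genes 15.6%). It was called in all 8 libraries at 31 members (all genes 9.54%) and in no library at 12 (all genes 61.1%). The median rank of called members was 88.0 and 90.9 in CM +Dox and 86.8 to 94.5 in the others, while that of all called genes was 63.9 to 72.2. CHD7 peaks at members were thus higher in each list than CHD7 peaks at genes at large, whereas RUNX1 peaks at members were lower.

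In the top 5% of every CHD7 list lay 13 members (all genes 3.0%), or 13 of the 31 called in all 8 libraries (all genes 31.4%). They were Mrpl1, Mrpl3, Mrpl12, Mrpl16, Mrpl20, Mrpl21, Mrpl23, Mrpl30, Mrpl39, Mrpl44, Mrps10, Mrps31 and Mrps33. By subunit, 10 encode large-subunit proteins and 3 small-subunit proteins. The limit of 5% was chosen after the values were seen. Of the 34 members with no other gene's end within 1 kb, 8 were among the 13 (all genes of that kind 2.03%). RUNX1 was called in no library at 3 of the 13, Mrpl21, Mrpl44 and Mrps10, where the share over all genes of that kind was 19.7%. The other 10 had RUNX1 calls in at least 1 library, up to the 6 libraries of Mrpl1.

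Mrps31, a small-subunit protein found only in mitochondria, had the highest CHD7 ranks of the members. Its CHD7 percentiles were 99.8 and 99.7 in CM +Dox, against 99.5 to 99.9 in the others, from a site at chr8:22410911-22412051. Mrps33, also specific to mitochondria, had 99.7 and 99.7 in CM +Dox, against 99.4 to 99.8. Mrpl23, which lines the tunnel exit in bacterial relatives, had 99.7 and 99.8 in CM +Dox, against 99.0 to 99.6. Mrpl12, the stalk protein reported to bind the mitochondrial RNA polymerase as well, had 99.7 and 99.5 in CM +Dox, against 98.7 to 99.6. These members were chosen for high ranks in every list. Mrps10, in the head of the small subunit, had 99.4 and 99.5 in CM +Dox, against 98.5 to 99.5. Mrpl44, which has a ribonuclease III-like fold, had 99.4 and 98.9 in CM +Dox, against 98.4 to 99.4.

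CHD7 calls changed little with CM. Of 32 members called in all 6 libraries without induced CM (all genes 10.5%), 0 were lost (all genes 0.961%). Of 15 members called in none of the 6, 1 was gained, Mrpl32 (all genes 0.549%), whose protein is cut by a mitochondrial protease in mouse and yeast. The Mrpl32 peaks of the CM +Dox libraries lay at different places, chr13:14611092-14611333 and chr13:14612953-14613277, each called in 1 library, at percentiles of 81.5 and 14.0. The start of Mrpl32 lies 205 bp from that of Psma2, a proteasome gene. The gain was not called with the gene start alone, nor at equal list length. Counts as small as these moved with single libraries. Without CM +Dox replicate 2, 3 members were gained and 1 lost. Without CM -Dox replicate 1 or Control +Dox replicate 2, 2 were gained, and without CM -Dox replicate 2, 2 were gained and 1 lost.

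Between pairs of conditions, CHD7 was missing from CM +Dox but present in both CM -Dox libraries at 0 of 35 members (all genes 4.17%). The converse held at 3 of 25, Mrpl32, Mrps14 and Mrps21 (all genes 1.79%). Set against Control +Dox, CM +Dox lacked calls at 1 of 35 members, Mrpl52 (all genes 6.32%), and had added calls at 3 of 28, Mrpl10, Mrpl32 and Mrpl47 (all genes 2.88%). Control +Dox lacked calls of Control -Dox at 1 of 40, Mrps18a (all genes 5.18%), and added 1 of 25, Mrps7 (all genes 0.954%). CM -Dox lacked calls of Control -Dox at 2 of 40, Mrpl54 and Mrps21 (all genes 5.09%), and added 1 of 25, Mrps22 (all genes 1.52%). Of members with CHD7 in every library, those with the widest rank differences were Mrpl22 and Mrpl45. Mrpl22, the relative of the tunnel protein L22, averaged 38.37 in CM +Dox and 74.54 in the others, from a site at the end of the gene, 8195 bp from its start. CM +Dox replicate 1 alone gave 75.4 there and replicate 2 gave 1.33. Mrpl45 averaged 87.55 in CM +Dox and 53.37 in the others, from 81.5 and 93.6 against 22.4 to 84.3. Mrpl17 averaged 39.88 in CM +Dox and 62.45 in the others, from 74.1 and 5.66 against 41.1 to 81.3. At both genes the groups overlapped, and ranks of lists of unequal length show no change.

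Both antibodies were called in both replicates at 10 members in CM +Dox cells (all genes 7.78%), 16 in CM -Dox (all genes 9.57%), 12 in Control +Dox (all genes 7.95%) and 23 in Control -Dox cells (all genes 9.04%). Given a RUNX1 call, the share with CHD7 was 10 of 17 in CM +Dox (all genes 48.1%), 16 of 28 in CM -Dox (all genes 49.4%), 12 of 21 in Control +Dox (all genes 49.5%) and 23 of 32 in Control -Dox (all genes 49.8%). CHD7 was also found without RUNX1. It was called in all 8 libraries at 9 of the 26 members with no RUNX1 call at a gene end (all genes 2.00%). At members with RUNX1 in all 8 the count was 7 of 10 (all genes 33.9%).

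**Figure D3:**
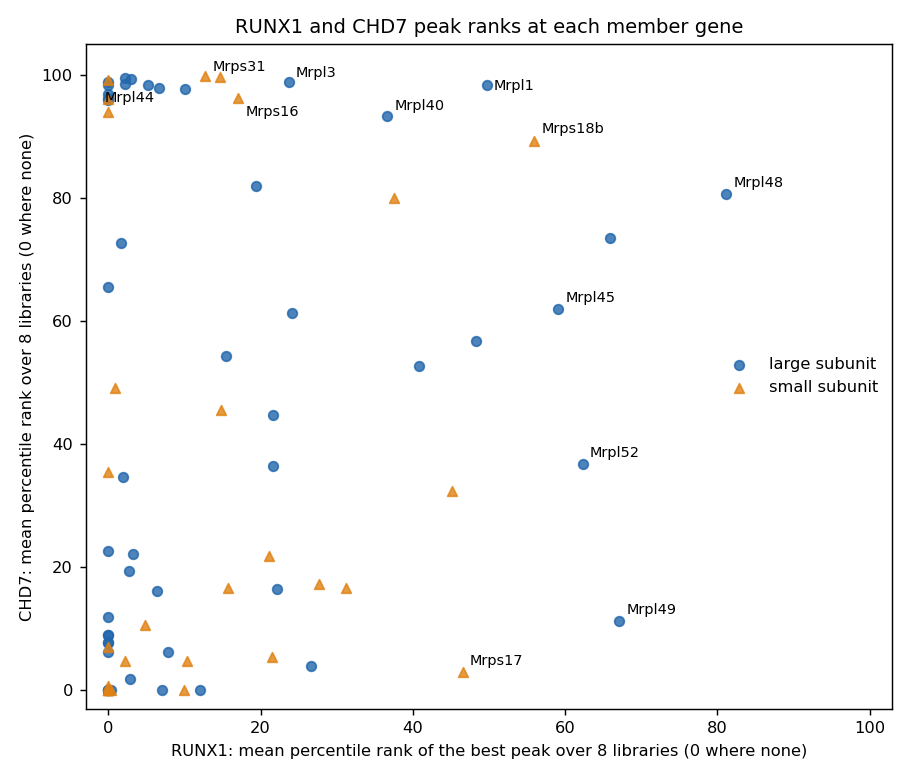
Each of the 78 members by its mean RUNX1 percentile rank (horizontal) and mean CHD7 percentile rank (vertical) over 8 libraries each, with 0 for a library without a peak; blue circles are large-subunit genes and orange triangles small-subunit genes. A row of members lies near 100 for CHD7 at low RUNX1 ranks, and Mrpl48 lies farthest right at a mean RUNX1 rank of 81.19. Mrpl49 and Mrps17 have mean RUNX1 ranks of 67.14 and 46.54 and low mean CHD7 ranks of 11.28 and 2.99.

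The peaks of each antibody were merged into sites. Those of RUNX1 gave 55 sites at 52 members with a median width of 353 bp, and 42 of the 49 sites at members with a known start covered it. All 49 had their centre within 1 kb of a start, at a median of -45 bp, where minus is upstream. The CHD7 peaks merged into 108 sites at 66 members with a median width of 522 bp, and 44 of the 95 at members with a known start covered it. Of these 95, 73 had their centre within 1 kb of the start. Among the 30 CHD7 sites called in all 8 libraries the median width was 901.5 bp, and 25 of 27 covered a start. At 14 members a site of each antibody was called in at least 6 libraries, and those of Mrpl1 are 70 bp apart.

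**Figure D4:**
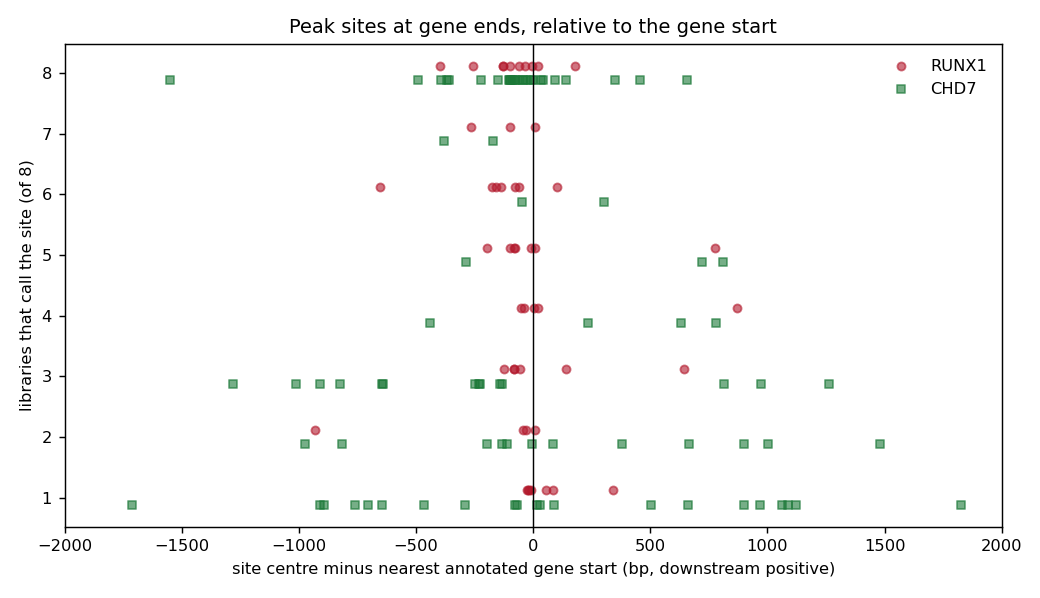
Distance in bp from the nearest annotated gene start to the centre of each site (horizontal, downstream positive) against the number of the 8 libraries that call it (vertical), with RUNX1 as red circles and CHD7 as green squares; sites beyond the axis range are not drawn. RUNX1 sites lie at a median of 80.0 bp from the start and CHD7 sites at a median of 468.0 bp, and the 27 CHD7 sites called in 1 library at 902.0 bp.

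Some members begin inside the span of the gene table, where a peak at the start lies over 1 kb from either end. CHD7 was called at the annotated start of Mrps2, the relative of bacterial S2, in all 8 libraries with a mean percentile of 99.17, although no peak lay at its gene ends. RUNX1 was called at the start of Mrpl18 in 1 CM +Dox library and all 6 others, with a mean percentile of 44.13. At the start of Mrpl24 RUNX1 was likewise called in 1 CM +Dox library and all 6 others, with a mean percentile of 23.96. The start of Mrps23 had RUNX1 in no CM +Dox library and 5 of the others. Measured at annotated starts, RUNX1 was called in all 8 libraries at 14.5% of the 69 members and 10.7% of all genes with a start. For CHD7 the shares were 40.6% of members and 10.1% of all genes.

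Neighbouring genes share many of these promoters. An end of another protein-coding gene lay within 1 kb at 44 of the 78 members (all genes 24.8%). At 23 members or more, that neighbour began in the opposite direction within 1 kb. This could be scored only where both genes had an annotated start, which 9 members lack, and it was not counted over all genes. Mrpl46 and Mrps11 face each other 42 bp apart. Of the 34 members with no such neighbour, 3 had RUNX1 in every library, where the share of all genes with none was 7.55%. CHD7 was called in every library at 15 of the 34 (all genes with none 7.25%). RUNX1 was lost at 3 of the 8 that were called in all 6 libraries without induced CM (all genes of that kind 13.9%). The neighbours' part in the calls was not tested.

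The members were also counted by subunit. RUNX1 was called in all 8 libraries at 6 of 49 large-subunit and 4 of 29 small-subunit members, and in none at 16 large-subunit and 10 small-subunit members (all genes 10.3% in all 8 and 68.9% in none). CHD7 was called in all 8 libraries at 23 of 49 large-subunit and 8 of 29 small-subunit members, and in none at 6 of each (all genes 9.54% in all 8 and 61.1% in none). Of the 5 lost RUNX1 calls, 4 were at large-subunit members and 1 at a small-subunit member. The difference between subunits was not tested.

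RUNX letters were found at few member promoters. TGTGGT, on either strand, stood in 9 of 75 member promoter windows, or 12%, where 15.0% of all 21263 windows of that length held it. The longer TGTGGTT stood in 5.33% of member windows and 4.71% of all windows. Of 11 member windows with RUNX1 in all 8 libraries, 1 held TGTGGT, that of Mrps17, where its first base lies 36 bases into the transcript. In Mrpl52 the match begins 66 bases before the start and lay under RUNX1 peaks of 7 libraries, and in Mrpl33 it begins 113 bases before the start and lay under those of 4. Matches before the start lay under RUNX1 peaks of 4 libraries in Mrps30, 3 in Mrps5 and 1 in Mrpl48, and Mrps33 held 1 match under those of 3 libraries and 1 under none. The matches in the Mrpl23 and Mrpl27 windows lay under no RUNX1 peak. A match is a description of letters and not a binding site.

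ETS letters, CCGGAAG on either strand, stood in 34.7% of member windows and 11.6% of all windows. Where RUNX1 was called in all 8 libraries they stood in 6 of 11 member windows, or 54.5%, and in 28.3% of all such windows. Where CHD7 was called in all 8 libraries the shares were 42.3% of member windows and 38.2% of all. NRF1 letters, CGCATGCG, stood in 9.33% of member windows and 2.52% of all windows. YY1 letters, AAGATGGC, stood in 16% of member windows and 3.05% of all. Letters of broader use differed less, with CCAAT at 40% and 38.2%, GGGCGG at 52.0% and 46.2%, CACGTG at 9.33% and 7.84%, and AGATAA at 14.7% and 9.65%. The median GC content was 58.7% in member windows and 56.3% in all.

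**Figure D5:**
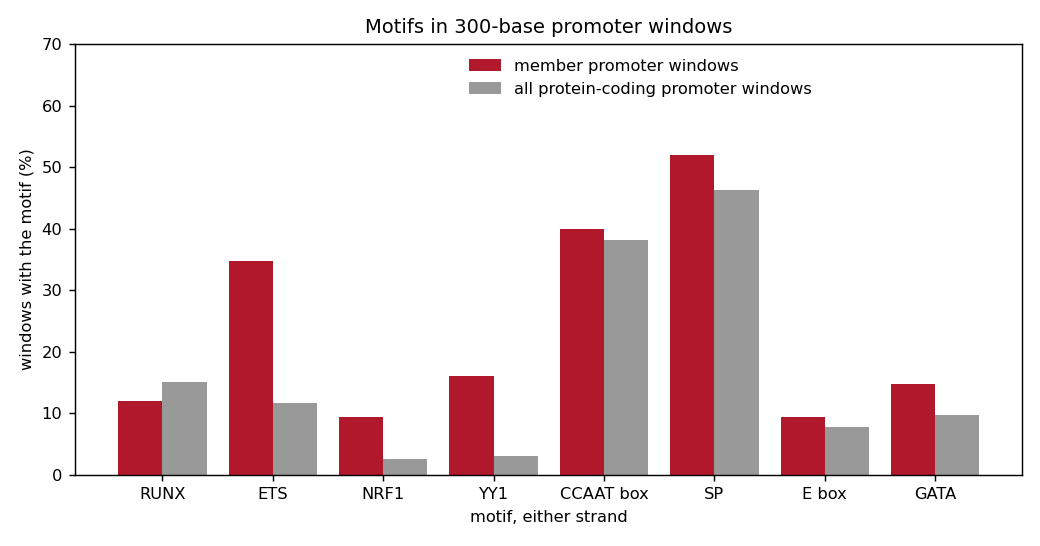
Percent of promoter windows of 300 bases that hold each motif on either strand (vertical), for the 75 member windows (red) and all 21263 protein-coding windows (grey). ETS, NRF1 and YY1 bars are taller for members, at 34.7%, 9.33% and 16%, and the RUNX bar is shorter, at 12% against 15.0%.

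Other genes of mitochondrial gene expression were set beside the members. RUNX1 was called in both replicates at 2 of 5 further mitoribosome proteins in CM +Dox (all genes 16.2%). The counts were 3 in CM -Dox (all genes 19.4%), 3 in Control +Dox (all genes 16.1%) and 2 in Control -Dox (all genes 18.1%). Aurkaip1, a small-subunit protein, had RUNX1 percentiles of 61.5 and 20.7 in CM +Dox, against 84.1 to 91.5 in the others, and those groups did not overlap. Its CHD7 peaks lay in the top 5% of every list. Ptcd3 had RUNX1 percentiles of 53.7 and 49.9 in CM +Dox, against 46.5 to 72.6, and Dap3, which binds GTP, had no peak and 17.5 in CM +Dox, against no peak to 65.4.

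RUNX1 was called in both replicates at 3 of 16 translation factors in CM +Dox (all genes 16.2%). The counts were 4 in CM -Dox (all genes 19.4%), 4 in Control +Dox (all genes 16.1%) and 6 in Control -Dox (all genes 18.1%). Taco1, an activator of COX1 translation, was the 1 lost of 4 called in all 6 libraries (all genes 12.3%). CHD7 percentiles at Taco1 were 98.6 and 98.5 in CM +Dox and 96.6 to 98.9 in the others. Tufm, the elongation factor that brings aminoacyl-tRNA to the ribosome, had RUNX1 percentiles of 22.3 and 26.3 in CM +Dox, against 67.2 to 78.2 in the others. Mtrf1l, a release factor, had 97.2 and 94.3 in CM +Dox, against 44.6 to 92.4. Tufm was lower and Mtrf1l higher in rank in CM +Dox lists, but ranks of lists of unequal length show no change. How often genes at large differ in this way was not counted.

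RUNX1 was called in both replicates at 4 of 23 assembly and rRNA modification genes in CM +Dox (all genes 16.2%). The counts were 4 in CM -Dox (all genes 19.4%), 4 in Control +Dox (all genes 16.1%) and 5 in Control -Dox (all genes 18.1%). Of 3 called in all 6 libraries without induced CM, 0 were lost (all genes 12.3%). Rbfa, a small-subunit assembly factor, had RUNX1 percentiles of 96.0 and 89.0 in CM +Dox, against 68.5 to 89.8. Nsun4, an rRNA methyltransferase, had 56.2 and 48.5 in CM +Dox, against 56.2 to 80.7, and Ngrn had 51.3 and no peak in CM +Dox, against 18.4 to 57.5. Of 22 mitochondrial aminoacyl-tRNA synthetase and amidotransferase genes, 6 were called in both CM +Dox replicates (all genes 16.2%). The counts were 9 in CM -Dox (all genes 19.4%), 10 in Control +Dox (all genes 16.1%) and 10 in Control -Dox (all genes 18.1%). Aars2, which charges alanine tRNA, had 57.7 and 83.2 in CM +Dox, against 56.9 to 83.8. Gatc, an amidotransferase subunit, had 7.71 and no peak in CM +Dox, against 47.8 to 81.2, while its partner Gatb had 50.2 and 47.6 in CM +Dox, against 7.90 to 60.0.

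RUNX1 was called in both replicates at 4 of 17 genes of mitochondrial transcription and DNA maintenance in CM +Dox (all genes 16.2%). The counts were 9 in CM -Dox (all genes 19.4%), 8 in Control +Dox (all genes 16.1%) and 9 in Control -Dox (all genes 18.1%). Mgme1 and Polg were the 2 lost of 8 (all genes 12.3%). Polg, the catalytic subunit of the mitochondrial DNA polymerase, had no RUNX1 peak in CM +Dox, against 43.3 to 78.2 in the other 6 libraries. Esrra, a nuclear receptor that acts on genes of energy metabolism, had 89.2 and 87.9 in CM +Dox, against 50.3 to 83.3. Polg2, the accessory subunit of the mitochondrial DNA polymerase, had 63.8 and 58.3 in CM +Dox, against 35.6 to 66.2. No gene of any of these lists was gained for RUNX1, where 0.437% of all genes called in none of the 6 libraries were gained.

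CHD7 was called in all 8 libraries at 3 of the 5 further mitoribosome genes and 7 of 16 translation factors (all genes 9.54%). The same held at 6 of 23 assembly genes, 6 of 22 synthetase genes and 8 of 17 transcription and DNA maintenance genes. CHD7 peaks lay in the top 5% of every list at Aurkaip1 and at the translation factors Gfm1, Gfm2, Taco1 and Tufm (all genes 3.0%). Among assembly genes they did so at Mterf4 and Mtg1. They did so too at Hars2 and Pars2, which charge histidine and proline tRNAs, and at Tfb2m, Tefm, Pprc1 and Ssbp1. Tfb2m, which opens mitochondrial promoters, had CHD7 percentiles of 99.6 and 99.5 in CM +Dox, against 98.3 to 99.4 in the others.

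The 83 cytosolic ribosomal protein genes and 48 proteasome genes were counted in the same way. RUNX1 was called in both replicates at 24 cytosolic ribosomal protein genes in CM +Dox (all genes 16.2%). The counts were 37 in CM -Dox (all genes 19.4%), 35 in Control +Dox (all genes 16.1%) and 43 in Control -Dox (all genes 18.1%). Of 28 called in all 6 libraries without induced CM, 4 were lost. At the proteasome genes the counts were 14 in CM +Dox (all genes 16.2%) and 19 in CM -Dox (all genes 19.4%). They were 12 in Control +Dox (all genes 16.1%) and 18 in Control -Dox (all genes 18.1%), with 2 lost of 11. The shares lost, 4 of 28 and 2 of 11, stood beside 5 of 18 members and 12.3% of all genes. CHD7 lay in the top 5% of every list at 24.1% of cytosolic ribosomal protein genes and 14.6% of proteasome genes (all genes 3.0%). The mitochondrial ribosomal protein genes had 13 of 78. High CHD7 ranks were thus found in all 3 groups of genes.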

How the data were processed

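RUNX1 and CHD7 ChIP-seq peak lists of 16 mouse 416B libraries were used, each called per library. Alignment and peak software is named in the submitters' processing notes as Bowtie2 2.0.6 with MACS2 2.0.10, on mm10. The control of the peak calls is not given in the sources used here. Each score that the authors deposited is the −log10 of the peak's p-value, and it was used only to rank peaks within a list. Genes came from RefSeq GRCm38.p6, which mm10 denotes, on chromosomes 1 to 19, X and Y. Lost, gained and condition counts are yes or no calls per library, beside the same over all genes. Fisher's exact test per gene was also run on simulated calls. That run checked the code at unadjusted p and not the adjusted result. Computation used Python 3.11.15, pandas 2.3.3, numpy 2.4.6 and scipy 1.17.1. Members, gene lists and the rule for named genes (highest mean rank, lost or gained, widest rank difference, up to 3 per list, and any gene behind a count of 5 or fewer) were chosen with earlier results of these data known. Alternatives were the window, overlap, list length, threshold, gene start, neighbours, each library left out and each replicate number alone.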

Additional observations from a re-analysis of the deposited data

How the results depend on the processing

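Of 208 alternative values, 170 stayed within 1.5 times or 1 SD of the reported value or, for the per-gene test, at 0 genes. The per-gene values among the 170 could hardly have been other than 0 in this design and show nothing about stability. The difference in RUNX1 members per library, CM +Dox minus the others, was -11.83 as deposited and 8.17 at equal list length, which reversed it; there RUNX1 lost were 1, RUNX1 gained 5, RUNX1 in every library 3, CHD7 gained 0, both antibodies 6 in CM +Dox and 7 in Control -Dox, and the CHD7 difference -3.67 in place of 1.67. The cause was not tested. Both antibodies in CM +Dox were called at 6 members with windows of 0.5 kb and 16 with 5 kb. With peak centres, 1 CHD7 call was lost. With gene starts alone CHD7 gained were 0. Without members near another gene's end, RUNX1 lost were 3, RUNX1 in every library 3, CHD7 gained 0, CHD7 in every library 15, both antibodies 4 in CM +Dox and 13 in Control -Dox, and CHD7 in the top 5% throughout 8, by the smaller number of members. With the top 10%, a limit added after seeing the data, 16 members qualified. The longer RUNX letters stood in 4 windows. Leaving out each library in turn gave RUNX1 lost 5 to 8 and gained 0 to 2, with CHD7 lost 0 to 1 and gained 1 to 3, a RUNX1 difference of -13.50 to -9.90 and a CHD7 difference of -0.33 to 3.67. Replicate numbers were not taken to pair the libraries, since not every correlation of the deviations of same-numbered libraries from their condition means was over 0.1. Across genes r was 0.07 to 0.56 for RUNX1, highest between the control conditions, and 0.02 to 0.15 for CHD7. As a replicate block, replicate 1 alone gave RUNX1 lost 12 and gained 2, with CHD7 lost 3 and gained 6, and replicate 2 alone gave 8, 2, 1 and 2, with both antibodies at 17 members in CM +Dox. The per-gene test was rerun with the other windows, peak centres, gene starts, equal list length and the strictest RUNX1 threshold. It was also rerun with each library left out and each replicate number alone, and no rerun called a gene. With 1 CM +Dox library the smallest p could not pass. With 2, it could pass the adjustment only if most of the tested genes shared it. Read depth is unknown, so an absent call does not show absent binding.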
